A study of Homo sapiens with 4 samples.

Results

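NF-kB is a family of transcription factors built as dimers from 5 proteins, and the genes of all 5 (NFKB1, NFKB2, REL, RELA and RELB) were described here by their symbols, as 5 of the 24424 gene symbols counted in each library. All 5 were among the 18894 symbols with a count in at least 1 library, and all passed the minimum of 16 normalized counts in every comparison, so no member was lost to a filter. RNA was sequenced from BEAS-2B, an established bronchial epithelial line of human origin, in 4 conditions with 1 library each. Control cells received neither agent, LPS cells received LPS (bacterial lipopolysaccharide) for 2 h without peptide, and WT PDZ+LPS and mut PDZ+LPS cells received a peptide for 24 h and then LPS for 2 h. Both peptides were built on the first PDZ domain of the tight junction protein ZO-1 with a TAT sequence for entry into cells, and the mutant has alanines in place of a pair of adjacent glycines. No library with a peptide and without LPS was analysed here, so the effect of a peptide on unstimulated cells cannot be told apart from its effect on the response.

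The NF-kB proteins share a Rel homology region that binds DNA and joins the dimer partners. NFKB1 encodes p105, the precursor of p50, and NFKB2 encodes p100, the precursor of p52, whereas RELA (p65), REL (c-Rel) and RELB carry the domains that activate transcription. In resting cells the dimers are held in the cytoplasm by IkB proteins, and p105 and p100 act as inhibitors themselves through their ankyrin repeats. LPS sensed by TLR4 activates the IKK kinases, IkB is degraded, and p50:RELA dimers enter the nucleus, where several genes of the family and of its inhibitors are themselves targets. The p100 and RELB proteins belong mainly to the slower non-canonical branch.

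The 4 libraries held 19682929 to 25155647 counts, the fewest in mut PDZ+LPS, and the 5 subunit genes together took 0.0259% of them in Control and 0.0859% to 0.108% in the libraries with LPS. Counts were divided by geometric size factors, and such values are called normalized counts below. Of 10 airway epithelial markers, 10 reached 16 normalized counts in every library, against 2 of 10 leukocyte markers (CD14 and CD68), 2 of 8 fibroblast markers and 1 of 6 endothelial markers. PTPRC and TYROBP were at 0 in all 4 libraries, as were COL3A1, LUM and POSTN. The summed epithelial markers ranged from 74550 to 100900 normalized counts, and the summed leukocyte markers from 732 to 900, both highest in mut PDZ+LPS. Because every condition is a single library, no difference could be checked against replicates and p-values are not given. The 95% intervals are exact binomial or Poisson intervals for the levels and changes of genes and for ratios within a library. For changes of ratios between libraries they are normal-approximation intervals. All of them cover counting error only, the reads having no molecular identifiers that would make them independent molecules. In bulk RNA, fewer cells that express a gene and less RNA per cell cannot be told apart.

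The genes lie on 5 chromosomes, NFKB1 on chromosome 4, NFKB2 on 10, REL on 2, RELA on 11 and RELB on 19. The RefSeq table held 300-base promoter windows (250 bases before a transcript start and 50 after it, build GRCh38.p14) for 4 of the subunits, 8 windows in all. They were searched on both strands for the kB consensus, the general recognition motif of NF-kB dimers. Of the 8 windows 4 held a kB match, and 11.3% of all 35116 windows in the table did, but the motif was chosen after these windows had been seen, so this is no comparison of the subunits with other genes. The windows with a match are printed with the GC-richer window of RELA, which had none, to show the letters that were found. Capitals mark the kB matches, overlapping matches being joined to 1 stretch, and each sequence reads 5′ to 3′ on the strand of the gene.
NFKB1, chr4:102501109-102501408, plus strand: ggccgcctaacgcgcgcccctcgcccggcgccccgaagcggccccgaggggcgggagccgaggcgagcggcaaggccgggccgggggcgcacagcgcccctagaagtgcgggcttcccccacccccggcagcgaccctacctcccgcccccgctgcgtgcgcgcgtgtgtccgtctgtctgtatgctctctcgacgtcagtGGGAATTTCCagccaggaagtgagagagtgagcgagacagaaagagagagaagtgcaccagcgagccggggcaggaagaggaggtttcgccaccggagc
NFKB2, upstream start, chr10:102394328-102394627, plus strand: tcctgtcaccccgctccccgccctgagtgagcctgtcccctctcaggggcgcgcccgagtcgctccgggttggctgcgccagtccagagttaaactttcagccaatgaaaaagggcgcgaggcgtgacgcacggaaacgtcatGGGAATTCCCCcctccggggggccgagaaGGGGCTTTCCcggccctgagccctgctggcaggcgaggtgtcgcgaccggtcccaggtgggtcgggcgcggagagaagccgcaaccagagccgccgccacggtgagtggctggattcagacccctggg
NFKB2, downstream start, chr10:102395455-102395754, plus strand: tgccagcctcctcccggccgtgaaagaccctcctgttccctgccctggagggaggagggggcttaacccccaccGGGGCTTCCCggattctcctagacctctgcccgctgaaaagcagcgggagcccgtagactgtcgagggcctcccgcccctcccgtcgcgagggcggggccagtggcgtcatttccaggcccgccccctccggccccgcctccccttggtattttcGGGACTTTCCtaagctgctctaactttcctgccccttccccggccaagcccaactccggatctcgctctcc
REL, chr2:60881324-60881623, plus strand: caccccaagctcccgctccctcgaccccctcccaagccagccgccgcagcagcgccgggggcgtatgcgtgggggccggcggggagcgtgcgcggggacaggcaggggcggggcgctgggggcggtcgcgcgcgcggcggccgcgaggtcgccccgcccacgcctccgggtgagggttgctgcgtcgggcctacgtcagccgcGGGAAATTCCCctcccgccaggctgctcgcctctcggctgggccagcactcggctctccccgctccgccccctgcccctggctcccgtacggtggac
RELA, chr11:65662867-65663166, minus strand: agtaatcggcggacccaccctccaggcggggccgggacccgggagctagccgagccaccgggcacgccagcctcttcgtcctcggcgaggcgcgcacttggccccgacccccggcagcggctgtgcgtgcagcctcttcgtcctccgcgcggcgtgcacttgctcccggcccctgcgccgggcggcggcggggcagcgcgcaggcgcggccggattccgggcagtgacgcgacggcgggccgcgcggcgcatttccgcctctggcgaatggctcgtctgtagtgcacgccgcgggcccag
The NFKB1 match GGGAATTTCC began 49 bases before the transcript start, and the REL match GGGAAATTCCC began 47 bases before it. NFKB2 carried 2 separate stretches at each printed start, GGGAATTCCCC and GGGGCTTTCC at 107 and 78 bases before the upstream one, and GGGGCTTCCC and GGGACTTTCC at 176 and 21 bases before the downstream one. The remaining windows of NFKB1, NFKB2 and RELA held none, and that of NFKB2 lies upstream of both printed NFKB2 starts. A match is a description of letters, and the counts do not show from which start a gene was transcribed. RELB was not among the genes of the promoter table.

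The response to LPS was first read in the precursor genes. NFKB1 had 1909 normalized counts in Control (95% counting interval 1830 to 1991), 12845 in LPS (12630 to 13062), 11534 in WT PDZ+LPS (11323 to 11747) and 7445 in mut PDZ+LPS (7263 to 7630). NFKB2 had 1014 in Control (957 to 1074), 6521 in LPS (6368 to 6676), 5478 with WT PDZ+LPS (5333 to 5626) and 7361 with mut PDZ+LPS (7180 to 7546). For both genes the Control library was far below the other 3. No counting intervals overlapped between libraries, but the share of all genes for which this held was not counted. The highest library was LPS for NFKB1 and mut PDZ+LPS for NFKB2.

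Of the activating subunits, RELA, the partner of p50 in the canonical dimer, had 1765 normalized counts in Control (1689 to 1844), 2667 in LPS (2570 to 2767), 2472 in WT PDZ+LPS (2375 to 2572) and 2577 in mut PDZ+LPS (2470 to 2687). RELB, the partner of p52, had 451 in Control (413 to 491), 1808 in LPS (1728 to 1891), 1521 with WT PDZ+LPS (1445 to 1600) and 1920 with mut PDZ+LPS (1828 to 2015). Control was the lowest library for both genes. Among the 3 libraries with LPS, the RELA intervals of mut PDZ+LPS overlapped those of both others, and WT PDZ+LPS was lowest for both genes. REL, which encodes c-Rel, had 455 normalized counts in Control (417 to 496), 1714 in LPS (1636 to 1794), 1754 in WT PDZ+LPS (1672 to 1838) and 571 in mut PDZ+LPS (521 to 624), from 523, 1822, 1737 and 486 counts. The REL intervals of LPS and WT PDZ+LPS overlapped, while mut PDZ+LPS lay far below both and just above Control.

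**Figure D1:**
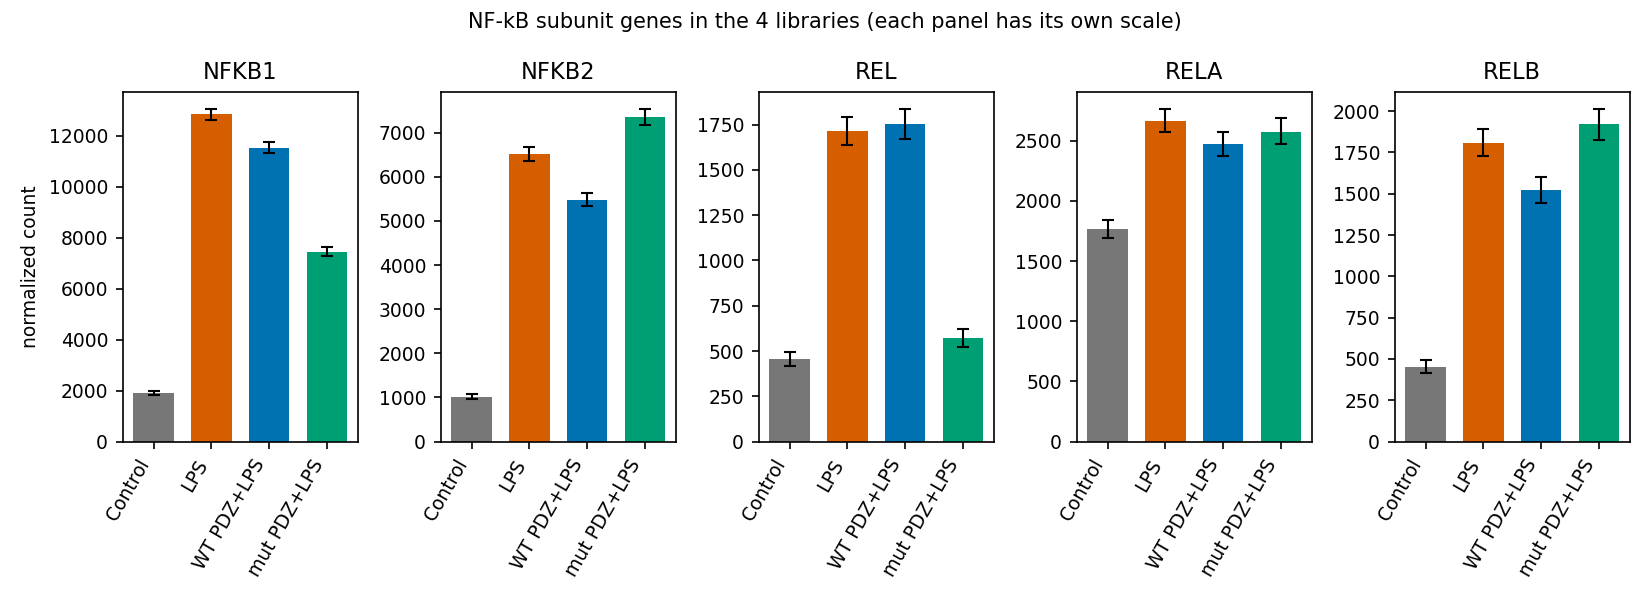
Normalized counts (vertical axis, starting at 0, a separate scale in each panel) of the 5 subunit genes in the 4 libraries. Bars are single libraries and error bars are 95% counting intervals, not replicate error. The REL bar of mut PDZ+LPS (571) stands near Control (455) while the NFKB2 bar of that library (7361) is the highest of its panel.

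In LPS/Control, 4 of the 5 subunit genes were at least 2-fold higher and none lower, where 3.46% of the 13277 genes compared were higher by this rule and 4.87% passed it in either direction. The log2 fold change was 2.75 for NFKB1 (2.69 to 2.82), 2.68 for NFKB2 (2.60 to 2.78), 2.00 for RELB (1.86 to 2.15) and 1.91 for REL (1.77 to 2.06), against a median of -0.0023 over all genes compared. RELA was 1.51-fold higher, 0.60 on the log2 scale (0.51 to 0.68), and lay under the threshold. Of all genes compared, 0.761% had a higher change than NFKB1 and 0.813% a higher one than NFKB2. For RELA this share was 6.61%, so its difference was inside the range of 90% of genes that the plot of log2 fold changes shades.

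With a peptide before LPS, the same 4 genes were at least 2-fold above Control in WT PDZ+LPS, where 3.28% of genes compared were higher by this rule and 4.70% passed it in either direction. Their log2 fold changes were 2.59 for NFKB1, 2.43 for NFKB2, 1.94 for REL and 1.75 for RELB, and that of RELA was 0.49. After the mutant peptide and LPS, 3 of the 5 were at least 2-fold above Control, NFKB2 at 2.86, RELB at 2.09 and NFKB1 at 1.96, where 5.13% of genes compared were higher and 8.09% passed in either direction. RELA was at 0.55 and REL at 0.33 (0.15 to 0.51). All 3 comparisons share the Control library.

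**Figure D2:**
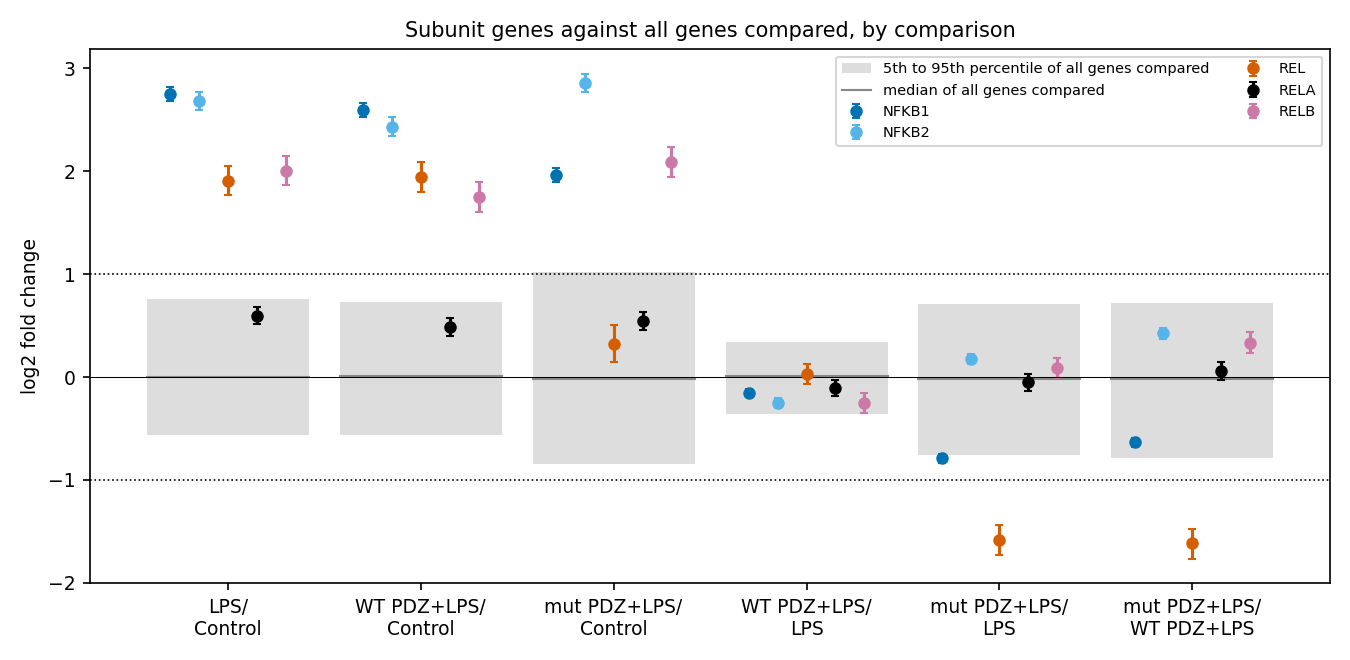
Log2 fold change (vertical axis) of each subunit gene in the 6 comparisons (horizontal axis). Points carry 95% counting intervals, grey boxes span the 5th to the 95th percentile of all genes compared with their median as a line, and dotted lines mark 2-fold. NFKB1, NFKB2, REL and RELB lie above the box in LPS/Control (1.91 to 2.75), all 5 lie inside it in WT PDZ+LPS/LPS, and REL lies far below it in the last 2 comparisons (-1.58 and -1.62).

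Between WT PDZ+LPS and LPS, none of the 5 subunit genes differed by 2-fold, and 1.37% of the 13236 genes compared did. NFKB2 was 0.25 lower on the log2 scale (-0.25, counting interval -0.30 to -0.20), RELB 0.25 lower (-0.25, -0.35 to -0.15), NFKB1 0.16 lower (-0.16, -0.19 to -0.12) and RELA 0.11 lower (-0.11, -0.19 to -0.031). REL was at 0.033, with an interval of -0.062 to 0.13 that includes 0. The subunits thus stood at 84.0% of the LPS level for NFKB2, 84.1% for RELB, 89.8% for NFKB1, 92.7% for RELA and 102% for REL. Over all genes compared, 8.05% had a lower value than NFKB2 and 8.16% a lower one than RELB, and for NFKB1, RELA and REL the shares were 14.2%, 19.4% and 59.0%. Since the middle 90% of all genes ran from -0.36 to 0.34, the 5 genes were within the spread of genes between these libraries.

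Between mut PDZ+LPS and LPS, 1 of the 5 subunit genes was at least 2-fold lower and none higher, where 1.90% of the 13378 genes compared were lower by this rule and 3.95% passed it in either direction. That gene was REL, at 33.3% of its LPS level (log2 fold change -1.58, counting interval -1.73 to -1.44) and the 51st lowest of all genes compared. NFKB1 was at 58.0% (-0.79, -0.83 to -0.74), with 4.43% of genes lower. NFKB2 was at 113% (0.17, 0.13 to 0.22). For RELA (-0.050, -0.13 to 0.031) and RELB (0.087, -0.0094 to 0.18) the intervals included 0. Upper-quartile scaling turned the sign of RELA to 0.015.

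The peptides were also compared directly, since they differ by the exchange of the glycine pair for alanines and were given for the same 24 h, each before the same 2 h of LPS. In mut PDZ+LPS/WT PDZ+LPS, REL was again the 1 subunit at least 2-fold lower (-1.62, -1.77 to -1.47), where 2.14% of the 13372 genes compared were lower and 4.26% passed in either direction. NFKB1 was at -0.63 (-0.68 to -0.59), NFKB2 at 0.43 (0.37 to 0.48) and RELB at 0.34 (0.23 to 0.44). The interval of RELA, 0.060 (-0.024 to 0.14), included 0, which bounds a counting difference and does not show that the peptides act alike on it.

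The values of mut PDZ+LPS against the other libraries ran with transcript length and base composition, and the subunit genes are spread widely over both. The longest protein-coding transcript in GENCODE 29 is 11255 nt for REL, 4085 nt for NFKB1, 3416 nt for NFKB2, 3183 nt for RELA and 2294 nt for RELB. Their GC contents are 38.7%, 50.1%, 62.4%, 57.1% and 65.4% in that order. REL is thus the longest and the poorest in GC, and a shorter REL transcript of 2398 nt with 43.5% GC is annotated beside it. Counts per gene do not tell the REL transcripts apart. No other gene of the count table overlapped the span of a subunit gene in this annotation.

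Over 12119 genes, Spearman's rho across genes, given as a description because genes of the same libraries are not independent, was -0.605 between transcript length and the log2 fold change of mut PDZ+LPS/LPS and 0.413 with GC content. For WT PDZ+LPS/LPS the values were 0.075 and -0.0872. The 1212 genes in the longest decile (7619 nt and more), which includes REL, had a median of -0.47 in mut PDZ+LPS/LPS, with a 10th percentile of -0.95. REL at -1.58 was below all but 9 of the others. Of the 202 genes in both the length decile and the GC decile of REL the median was -0.53 and the 10th percentile -0.95, and 2 were lower than REL. NFKB1 lay in the sixth length decile, whose median was -0.10, and 23 of the 1211 genes there were lower than its -0.79. NFKB2 and RELB, with the highest GC contents, lay in the tenth GC decile, where the median was above 0, at 0.35. Their own values, 0.17 for NFKB2 and 0.087 for RELB, were below that median. REL and NFKB1 were also below the medians of their GC deciles, -0.22 and -0.080.

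**Figure D3:**
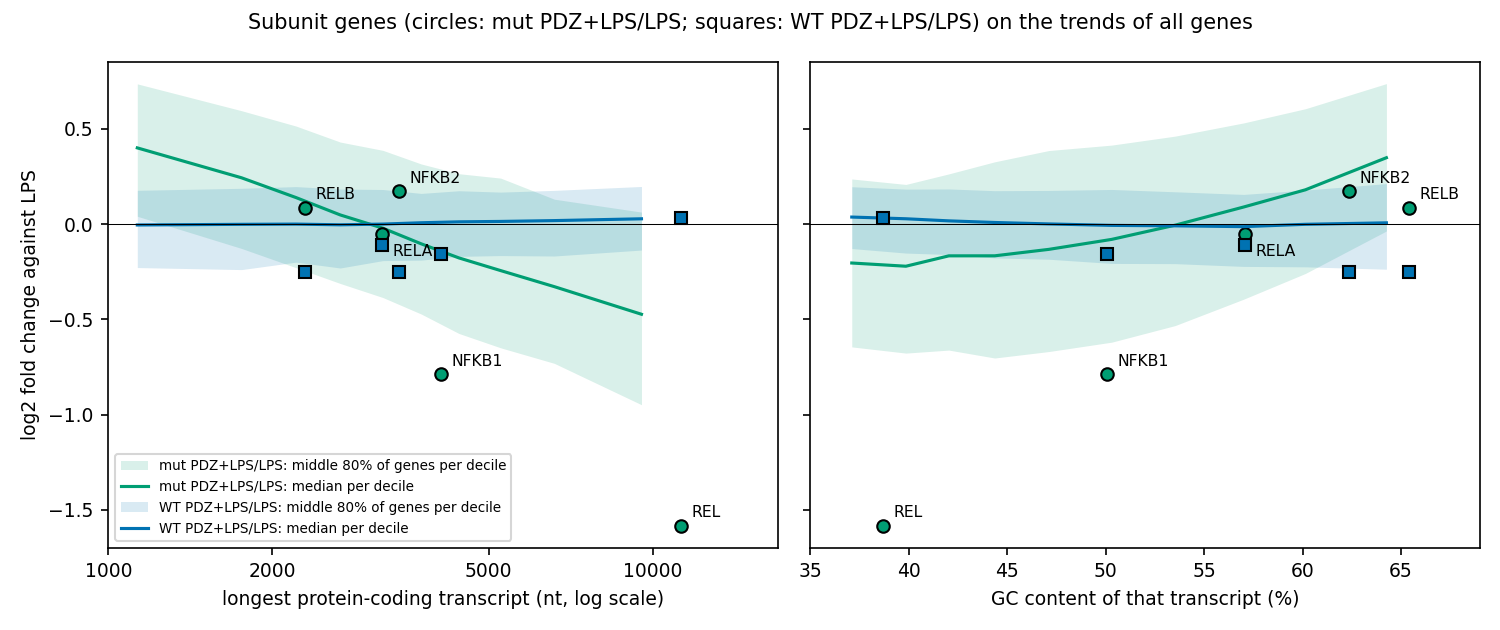
Log2 fold change against LPS (vertical axis) over the length of the longest protein-coding transcript (left, log axis, nt) and its GC content (right, %). Lines join the medians of deciles of all genes, bands hold the middle 80% of genes in each decile, circles are the subunit genes in mut PDZ+LPS/LPS and squares those in WT PDZ+LPS/LPS. For the mutant peptide the medians go down with length, from 0.40 to -0.47, and REL (-1.58) and NFKB1 (-0.79) lie below the bands of their deciles, while for the WT peptide the medians over length run only from -0.0044 to 0.028.

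After a lowess trend over length and then GC content had been removed, the log2 fold change of mut PDZ+LPS/LPS was -1.02 for REL, -0.59 for NFKB1, 0.043 for NFKB2, -0.077 for RELA and -0.32 for RELB. REL remained the lowest subunit, and RELB changed sign. The value of REL depended on the length assigned to it. With the coding sequence (1857 nt, similar to the 1653 to 1737 nt of RELA and RELB) it was -1.33, with GC content alone -1.37 and with REL entered at its shorter transcript -1.61. NFKB1 was at -0.49 with the coding length and stayed below 0 under each of these removals. NFKB2 was at -0.079 after the GC trend alone, so its direction in mut PDZ+LPS/LPS was not kept. In mut PDZ+LPS/WT PDZ+LPS the corrected values were -1.003 for REL, -0.44 for NFKB1, 0.29 for NFKB2, 0.013 for RELA and -0.069 for RELB. Against Control, REL in mut PDZ+LPS moved from 0.33 to 0.82 with its longest transcript. It was at 0.58 with the coding length, 0.54 with GC content alone and 0.35 with the shorter transcript. Before correction, 192 of the 202 genes of its length and GC deciles were lower than REL against Control, with a median of -0.45. What made the length trend of this library was not tested.

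Levels of different genes were compared per kb of transcript. On this scale, with the longest transcript, RELA led in Control at 555 normalized counts per kb, before NFKB1 at 467, NFKB2 at 297, RELB at 197 and REL at 40.4. In LPS the order was NFKB1 at 3144, NFKB2 at 1909, RELA at 838, RELB at 788 and REL at 152. WT PDZ+LPS kept that order, with 2823, 1604, 777, 663 and 156 per kb. NFKB2 led in mut PDZ+LPS, at 2155 before NFKB1 at 1822, RELB at 837, RELA at 810 and REL at 50.7. Every pair of neighbours in these orders differed beyond the counting interval of their ratio, other than RELB and RELA in mut PDZ+LPS, where RELA:RELB was 0.967 (0.907 to 1.03). Among all genes with a length, 71.9% were below the NFKB1 level per kb in Control and 96.5% in LPS, whereas for REL the shares were 16.7% and 39.6%.

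Per kb of coding sequence, which takes away the long untranslated part of the REL transcript, the level of REL was 245 for Control, 923 for LPS, 945 for WT PDZ+LPS and 308 for mut PDZ+LPS. It was then close to RELB, with a REL:RELB ratio of 0.944 in Control (0.835 to 1.07), 0.887 in LPS (0.831 to 0.946) and 1.08 in WT PDZ+LPS (1.01 to 1.16), but 0.278 in mut PDZ+LPS (0.251 to 0.308). The share of REL in the summed level of the 5 genes was 2.60%, 2.23%, 2.59% and 0.894% per kb of the longest transcript, and 9.41%, 8.87%, 10.1% and 3.72% per kb of coding sequence, with the libraries in that same order. On both scales mut PDZ+LPS had the lowest REL share. The share of RELA also depended on the scale. The median of its 13 protein-coding transcripts is only 771 nt long, and its share in Control, the highest of the 5 genes each time, was 35.6%, 41.0% and 61.7% by the longest transcript, the coding sequence and the median transcript.

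**Figure D4:**
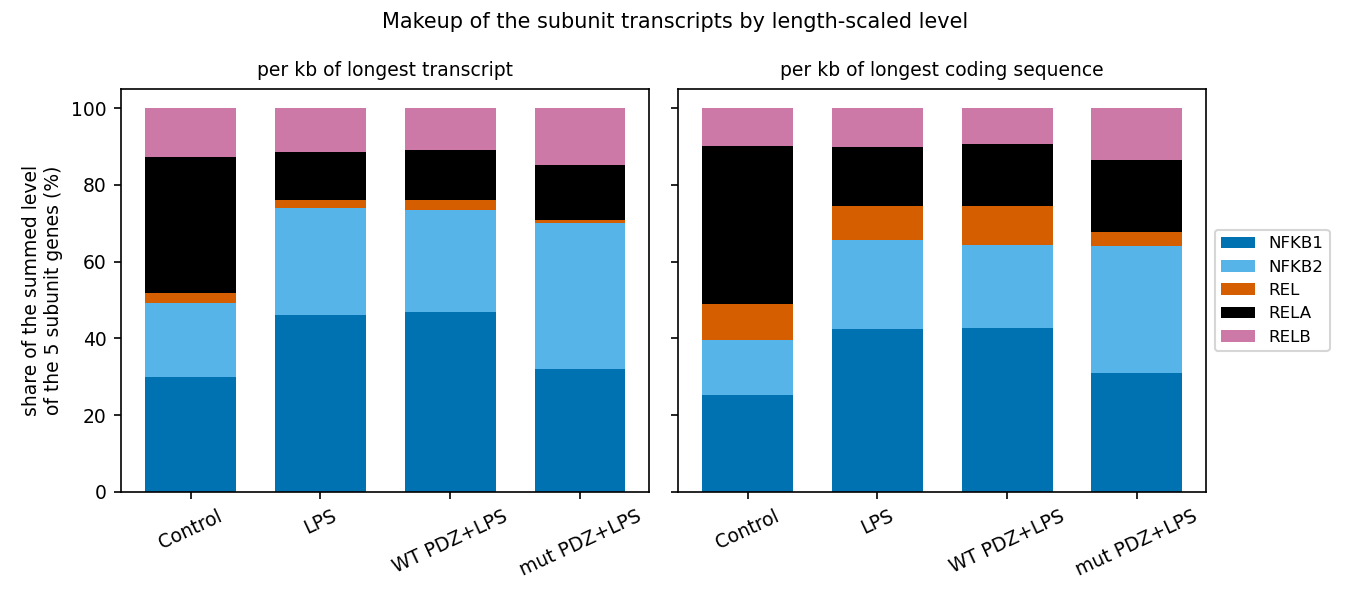
Share (%, vertical axis) of each subunit gene in the summed length-scaled level of the 5 genes, per library, by the longest transcript (left) and by the longest coding sequence (right). RELA makes up 35.6% in Control on the left and 12.3% in LPS, and NFKB1 46.0% in LPS and 32.1% in mut PDZ+LPS. The REL segment is wider on the right than on the left (8.87% against 2.23% in LPS).

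The ratios between subunits, which do not depend on the scaling of a library, gave 10 pairs. NFKB1:RELA per kb of the longest transcript was 0.843 in Control (0.793 to 0.896), 3.75 in LPS (3.60 to 3.91), 3.64 in WT PDZ+LPS (3.48 to 3.80) and 2.25 in mut PDZ+LPS (2.14 to 2.36). NFKB2:RELA was 0.535, 2.28, 2.07 and 2.66 in the same order. On this scale both precursor genes were therefore below RELA in Control and above it in every library with LPS. RELA:RELB went the other way, from 2.82 in Control to 1.06 in LPS, 1.17 with WT PDZ+LPS and 0.967 with mut PDZ+LPS. Summed per kb, the precursor genes stood at 0.966 times the activating subunits in Control, 2.84 times in LPS, 2.78 times in WT PDZ+LPS and 2.34 times in mut PDZ+LPS. The order of the precursor genes and RELA depended on the scale. Per kb of the median transcript, NFKB2:RELA was 0.15, 0.63, 0.57 and 0.73 in that order of libraries, below RELA in each. NFKB1:RELA was then 0.358, 1.594, 1.545 and 0.956. By counts alone, NFKB1:RELA in Control was 1.08 (1.02 to 1.15).

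In LPS/Control, 4 of the 10 ratios changed at least 2-fold. These were NFKB1:RELA (log2 change 2.15, 2.05 to 2.26), NFKB2:RELA (2.09, 1.97 to 2.21), REL:RELA (1.32, 1.15 to 1.48) and RELA:RELB (-1.41, -1.57 to -1.25), all with RELA. The counting intervals of the change included 0 for NFKB1:NFKB2 (0.065, -0.046 to 0.18) and REL:RELB (-0.091, -0.29 to 0.11).

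In WT PDZ+LPS/LPS, none of the 10 ratios changed 2-fold. The largest differences were those of NFKB2:REL (-0.28, -0.39 to -0.18) and REL:RELB (0.28, 0.15 to 0.42). The intervals of 7 of the 10 excluded 0, but they cover counting error only. The ratios have genes in common and are not independent. How often the intervals of other gene pairs excluded 0 was not counted in any comparison, so no shift in balance is read from this number. NFKB2:RELB, the precursor and the partner of the non-canonical dimer, was 2.42 in both libraries (log2 change -0.0018, -0.11 to 0.11).

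In mut PDZ+LPS/LPS, 3 of the 10 ratios changed at least 2-fold, each of them with REL. NFKB2:REL was 12.5 in LPS and 42.5 in mut PDZ+LPS (1.76, 1.61 to 1.91), REL:RELB 0.193 and 0.0606 (-1.67, -1.85 to -1.50) and REL:RELA 0.182 and 0.0627 (-1.54, -1.70 to -1.37). After removal of the length and GC trends these changes were 1.07, -0.71 and -0.95, so that 1 of the 3 stayed past 2-fold, and 1.43, -1.08 and -1.24 where coding length was used, which left all 3 past it. NFKB1:NFKB2 was 1.58 in Control, 1.65 in LPS and 1.76 in WT PDZ+LPS. Per kb of the longest transcript it was 0.846 in mut PDZ+LPS (0.817 to 0.876), with NFKB2 above NFKB1 there. That order depended on the scale, since the ratio in mut PDZ+LPS was 1.01 by counts (0.98 to 1.05). It was 0.939 there per kb of coding sequence (0.907 to 0.973) and 1.31 per kb of the median transcript. The log2 change of NFKB1:NFKB2 against LPS was -0.96 (-1.03 to -0.90), and -0.63 after both trends were removed. NFKB2:RELB was 2.58 in mut PDZ+LPS, with a change of 0.088 (-0.019 to 0.20), and it was the 1 ratio of this comparison whose interval included 0. RELA:RELB changed by -0.14 against LPS (-0.26 to -0.012) and by 0.24 after both trends were removed.

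Between the peptides, 4 of the 10 ratios changed at least 2-fold. NFKB2:REL did so by 2.05 (1.89 to 2.20), REL:RELB by -1.96 (-2.13 to -1.78), REL:RELA by -1.68 (-1.85 to -1.51) and NFKB1:NFKB2 by -1.06 (-1.13 to -0.99). After both trends were removed, the values were 1.30, -0.93, -1.02 and -0.73.

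**Figure D5:**
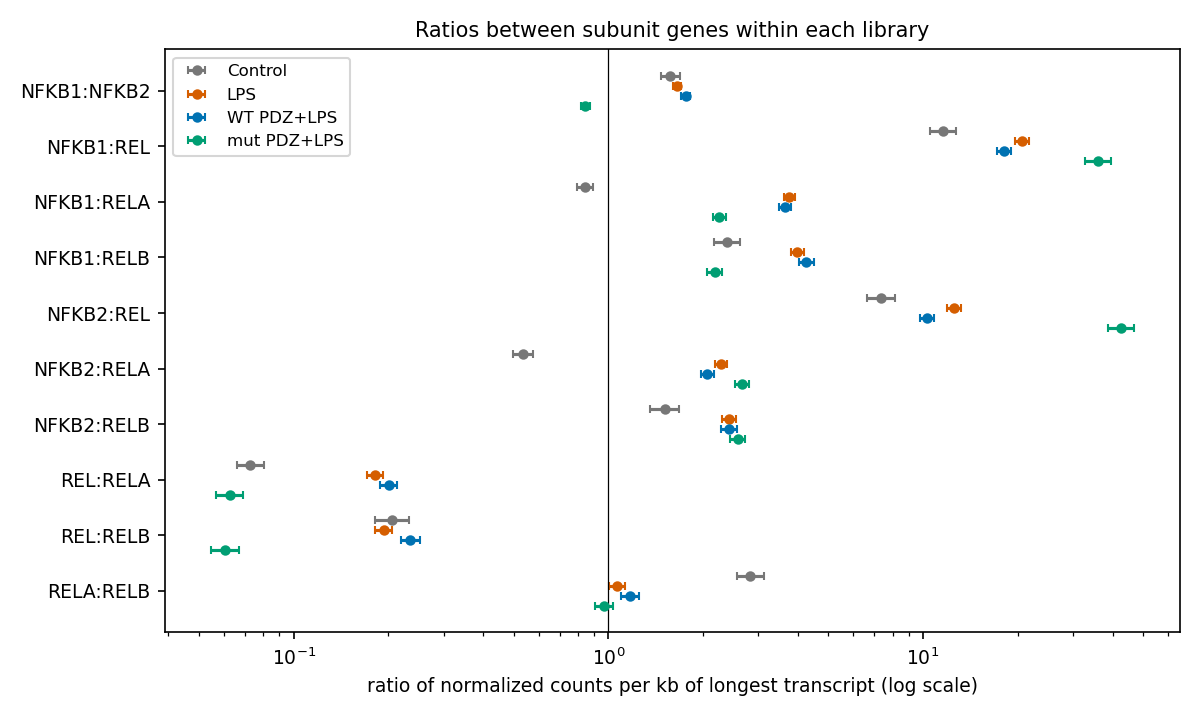
Ratios of the 10 pairs of subunit genes (rows) in the 4 libraries, as normalized counts per kb of the longest transcript on a log axis, with 95% counting intervals and a line at 1. NFKB1:RELA and NFKB2:RELA lie below 1 in Control (0.843 and 0.535) and above 1 in the other libraries, and the mut PDZ+LPS points stand apart from the other 3 libraries in NFKB1:REL, NFKB2:REL (42.5), REL:RELB and NFKB1:NFKB2 (0.846).

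The genes around the subunits in the pathway were taken from lists written for this purpose, which share some members. The lists were chosen with earlier results of these data known, so a high count in a list is no independent finding. The IkB proteins and nuclear IkB cofactors hold the dimers in the cytoplasm or join them on DNA. Of these genes, 5 of 6 were at least 2-fold higher in LPS/Control and none lower, where 3.46% of genes compared were higher. The list median was 2.03 on the log2 scale. NFKBIA, which encodes IkB-alpha, was at 2.98, NFKBIE (IkB-epsilon) at 2.53, the cofactor gene NFKBIZ at 4.25 and BCL3, a partner of p50 and p52 dimers, at 1.33. The median of this list was -0.14 in WT PDZ+LPS/LPS, with 5 of 6 below 0, and 0.27 in mut PDZ+LPS/LPS, with 5 of 6 above 0, and no member differed 2-fold in either. After removal of the length and GC trends the median in mut PDZ+LPS/LPS was 0.0059, with 3 of 6 above 0, and BCL3 (0.18 to -0.33) and NFKBIE (0.16 to -0.063) changed sign.

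Next came the genes upstream of the dimers, read beside the 3.46% of all genes that were at least 2-fold higher in LPS/Control. Of 10 genes of the IKK complex and its kinases, 1 was at least 2-fold higher in LPS/Control, IKBKE, an IKK-related kinase, at 1.61, and none was lower (list median 0.16). Among 15 adaptors and ubiquitin enzymes the 2 higher genes were BIRC3, a ubiquitin ligase of the TNF receptor complex, at 3.40, and IRAK2, a kinase downstream of MYD88, at 3.28, with a list median of -0.014. Of 13 deubiquitinases and other brakes, 12 with enough counts, TNFAIP3, which encodes A20, was higher at 4.37 and its binding partner TNIP1 at 1.91 (list median 0.32). CHUK, the gene of IKK-alpha, named here after its values were seen, was the 1 member of these lists called between the peptides, with 1299 normalized counts in Control, 1403 in LPS, 1569 with WT PDZ+LPS and 735 with mut PDZ+LPS (log2 fold change between the peptides -1.09), and after removal of the length and GC trends no member of its list was past 2-fold there.

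Genes that act directly on the subunit proteins were read beside the same share. Of 8 genes for the processing and turnover of p100 and p105, 1 was at least 2-fold higher in LPS/Control, MAP3K8, the kinase that p105 binds, at 3.25 (list median 0.13). All 8 were below 0 in mut PDZ+LPS/LPS, with a median of -0.17 and none past 2-fold, but after removal of the length and GC trends 4 were above and 4 below 0, with a median of -0.027. Of 13 proteins that modify or bind RELA, none was 2-fold different in LPS/Control (median 0.085), with WT PDZ against LPS alone (0.018) or with mut PDZ against LPS alone (-0.0091).

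Of 25 NF-kB target genes, 24 reached the minimum in LPS/Control and all 24 were at least 2-fold higher, with a median of 4.39. By the same rule 3.46% of all genes compared were higher. The chemokine genes CXCL1 and CXCL8 were at 4.41 and 4.84, SOD2, the mitochondrial superoxide dismutase gene, at 3.13 and TNIP1 at 1.91. Of the 24, 23 were at least 2-fold higher in mut PDZ+LPS/Control, where 5.13% of genes compared were. The exception, TRAF1, was just under the threshold at 0.96 (named after its values were seen). The list median was -0.17 for WT PDZ+LPS/LPS, with 22 of the 24 below 0 and 2 above. For mut PDZ+LPS/LPS the median was 0.20, and no member differed 2-fold in either comparison. In mut PDZ+LPS, 16 of the 24 target genes were above and 8 below their own LPS level. After removal of the length and GC trends 13 were above and 11 below, with a median of 0.047. Whether target levels went with the levels of the subunits was not tested. CXCL1 (0.25 to -0.052) and SOD2 (-0.56 to 0.087) changed sign with this removal. In mut PDZ+LPS/WT PDZ+LPS, 19 of the 24 were above 0 and 5 below, with a median of 0.45. There 20 were above 0 and 4 below after removal of the length and GC trends, with a median of 0.20. BCL2A1, an anti-apoptotic gene named after its values were seen, was the 1 target called between the peptides, with 0 counts in Control, 74 in LPS, 56 with WT PDZ+LPS and 101 with mut PDZ+LPS (log2 fold change between the peptides 1.06), and after that removal no target gene was past 2-fold there.

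The genes whose pattern over the 4 libraries was nearest to that of each subunit were found by the root mean square difference of centred log2 values, among 10820 genes whose mean reached 100 normalized counts. For NFKB1 they were HIVEP2 (0.055), FOSL2 (0.084) and ITGB8 (0.11), whose longest transcripts run from 6708 to 10030 nt. For NFKB2 they were PLK3 (0.028), the IkB gene NFKBIE (0.071) and MAFF (0.091), with 2490 to 2581 nt and 59.5% to 61.2% GC. For RELB they were PNRC1 (0.042), CSF1 (0.049) and BCL6 (0.060), and for RELA they were DNAJA1 (0.011), PIM2 (0.019) and BCL10 (0.021). No gene came as near to REL, where the nearest were SGPP2 (0.26), ERN1 (0.27) and MTF1 (0.34), at -1.12, -0.87 and -0.84 in mut PDZ+LPS/LPS. Among the subunits themselves the nearest pair was NFKB2 and RELB (0.31) and the farthest NFKB2 and REL (0.96). These are distances over 4 libraries and include the length trend of mut PDZ+LPS.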

How the data were processed

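The authors isolated poly(A) RNA, made directional libraries and sequenced them as paired ends. The submitters' processing notes name TopHat and the build hg19. The counting tool, the annotation and whether strand was used are not given in the sources used here. The deposited values were raw counts per gene symbol, although the study's methods name FPKM and geometric normalization. Each condition had 1 library of 19682929 to 25155647 counts, mapped from the labels.

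Counts were divided by geometric median-of-ratios size factors (DESeq2 1.42.0, R 4.3.3), which were 1.15 for Control, 1.06 for LPS, 0.990 for WT PDZ+LPS and 0.851 for mut PDZ+LPS. A log2 fold change used a pseudocount of 1. A gene was compared where either library reached 16 normalized counts (a log2 value of 4), and called at 2-fold, after the study's stated thresholds. Lowess trends (span 0.3) over transcript length and then GC content were removed for the 12119 genes with a GENCODE 29 length, of 13072 whose mean reached 16 normalized counts. Promoter windows came from RefSeq (GRCh38.p14). No coordinate was taken over from hg19, and the motif was chosen after the windows were seen.

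Named genes were the 5 subunits, in each pathway list at most 4 members with the highest means among those 2-fold different in LPS/Control, and the 3 nearest genes by pattern for each subunit, without read-through symbols. The subunits and lists were chosen with earlier results of these data known. Alternatives were scaling by TMM (edgeR 4.0.16), by the upper quartile or by total counts, a pseudocount of 5, minimums of 0 and 64, thresholds of 1.5-fold and 3-fold, and other lengths. Removal of the trends from the pathway lists was added after seeing the data. The scripts ran in Python 3.11.15 with statsmodels 0.14.6, scipy 1.17.1 and pandas 2.3.3.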

Additional observations from a re-analysis of the deposited data

Results flagged for a closer look

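NFKB2 differed from LPS in opposite directions in the libraries with a peptide. Its log2 fold change was -0.25 for WT PDZ+LPS/LPS, against 0.17 for mut PDZ+LPS/LPS, from 6521 normalized counts in LPS, 5478 with the WT peptide and 7361 with the mutant peptide. Each change had a counting interval that excluded 0, the difference between the changes was not tested for want of replicates, and both share the LPS library. After removal of the length and GC trends the values were -0.26 and 0.043, and after removal of the GC trend alone they were -0.26 and -0.079, both below 0. The opposite directions before removal were not particular to NFKB2. RELB was at -0.25 and 0.087, the second with an interval that included 0. Of the IkB list, 5 of 6 were below LPS with the WT peptide and 5 of 6 above it with the mutant peptide. For the NF-kB target genes these were 22 of 24 and 16 of 24.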

How the results depend on the processing

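No paired analysis was possible because each condition had 1 library, and for the same reason no replicate could be left out. The number of subunit genes past the threshold was the same in all 6 comparisons under every scaling, pseudocount, minimum count and trend removal tried. At 1.5-fold it was 5 in place of 4 for LPS/Control, where RELA was 1.51-fold higher, and 2 in place of 1 for mut PDZ+LPS/LPS as well as for mut PDZ+LPS/WT PDZ+LPS. At 3-fold it was 0 in mut PDZ+LPS/LPS, where REL was 2.998-fold lower. The log2 fold change of REL in mut PDZ+LPS/LPS after removal of the length and GC trends (-1.02) was -1.33 with coding length, and, in alternatives chosen after seeing the data, -1.37 with GC content alone, -1.61 with REL at its shorter transcript and -1.58 with no trend removed. Total-count scaling moved the median of all genes by -0.13 in LPS/Control and in WT PDZ+LPS/Control, and the subunit values there were lower by the same amount. It kept the sign of all 30 fold changes, and upper-quartile scaling that of 29. Removal of length and GC trends kept the sign of 27 of 30 fold changes and 56 of 60 ratio changes and moved them by at most 1.02 on the log2 scale. Before any trend was removed, the counting intervals of RELA and RELB in mut PDZ+LPS/LPS included 0. Whether more counts would show a difference was not tested. After removal of the length and GC trends RELA was at -0.077 and RELB at -0.32, values for which no counting interval was made.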
